A study of Homo sapiens with 4 samples.

Results

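The genes described here are 89 single-transcript genes that were consistently higher in RP5-998N21.4 OE cells than in vector control cells. Each has exactly 1 transcript in the deposited count table, a mean over the 4 libraries of at least 4 CPM (counts scaled to a library total of 1e6), and a lower OE value more than 1.5 times the higher vector control value. Of 57820 genes in the table, 35613 had 1 listed transcript, 2414 of these reached the mean of 4 CPM, and 89 of the 2414 (3.69%) met the fold rule. The mirrored rule, with OE below control, was met by 73 of the 2414 (3.02%). With TMM or DESeq2 size factors in place of library totals, the counts were 68 raised and 90 lowered. Of 11621 genes with several transcripts and the same mean, 4.36% met the fold rule and 2.75% the mirrored rule. The OE and control values themselves chose the members, so their differences are given as a description and without a test, and by the rule the groups overlap in no member.

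The study asked which genes respond to the long noncoding RNA (lncRNA) RP5-998N21.4. SK-N-SH, a human neuroblastoma cell line that holds both adrenergic (neuron-like) and mesenchymal cells, was transduced with a lentivirus. The vector control cells (2 libraries) received the empty lentivirus vector with no insert, and the OE cells (2 libraries) received the lentivirus carrying the RP5-998N21.4 cDNA under the EF1a promoter. The control titles say WT, whereas the treatment label names the empty vector, and the treatment label was followed. By the treatment labels both groups received a vector, and the share of cells that carried it is not given. The promoter is active in most cell types. No label names a clone or a selection step, or says that the 2 libraries of a group came from separate cultures. The spread between replicates may therefore be technical.

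For a gene with several transcripts, reads must be divided among isoforms before they are counted. A gene with 1 listed transcript has no listed isoforms to share them with. It can still share reads with a copy elsewhere in the genome or with an overlapping gene. In GENCODE release 44, 75 of the 84 members found (89.3%) and 90.7% of eligible genes had 1 transcript. Among the other members, C7orf13 had 23 and CHRNB2 had 5. Such genes are mostly of 3 kinds, namely processed pseudogenes (reverse-transcribed copies of an mRNA), lncRNAs, and coding genes for which a single transcript is listed, linker histones among them. SK-N-SH cells are known for their neural crest programme, in which factors such as HAND2 and GATA3 control catecholamine and neuronal genes.

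Library totals ran from 23785164 to 28307591 counts, so that a count of 0 allows up to 0.106 to 0.126 CPM (3 counts, counting error only). The 9 adrenergic markers summed to 373 and 477 CPM in the vector control and to 784 and 686 CPM in OE, with 8 of 9 above 1 CPM on average and TH at 0 in every library. The 6 mesenchymal markers summed to 1864, 1855, 2452 and 1476 CPM in the same order, where the high value of OE library 1 came from VIM. CD44, PRRX1, NOTCH3 and SNAI2 were lower in both OE libraries than in both control libraries. VIM was higher in both, and the FN1 values of the groups overlapped. Markers of leukocytes, epithelium, glia, liver and blood, and muscle summed to at most 1.87 CPM in any library, and those of kidney to at most 4.07 CPM, mostly PAX8.

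In the annotation used here (GENCODE release 44 on GRCh37), 39 members were protein-coding, 25 were pseudogenes and 20 were lncRNAs, and 5 were not found (NEFL, SCRT1, AL590369.1, AC015849.14 and RP1-90J20.12). The median of OE mean over control mean was 1.98-fold over all 89 members, 2.14-fold over the coding members, 1.97-fold over the lncRNAs and 1.82-fold over the pseudogenes. The lower OE value was less than 2 times the higher control value in 64 members, 2 to 4 times in 15 and at least 4 times in 10. Mean levels ran from 4.002 to 1679 CPM with a median of 9.84 CPM, and 46 members were under 10 CPM.

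**Figure D1:**
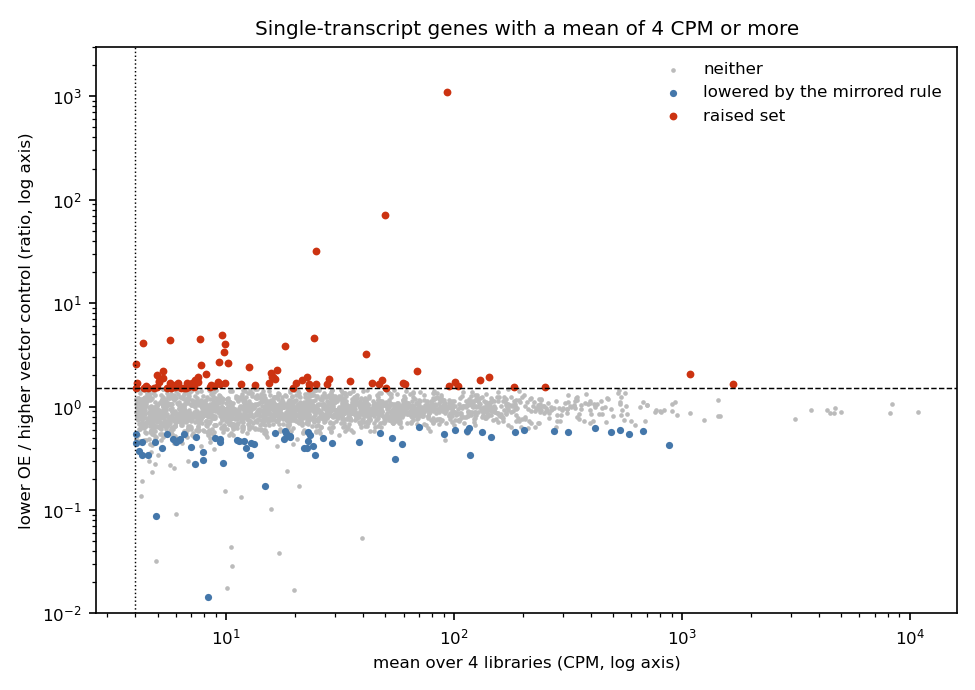
Ratio of the lower OE to the higher vector control value (vertical, log axis) against the mean over the 4 libraries (horizontal, CPM, log axis) for single-transcript genes. Red points are the raised members, blue points the genes lowered by the mirrored rule, grey points the rest; the dashed line is the ratio of 1.5 and the dotted line the mean of 4 CPM. Most red points lie between ratios of 1.5 and 2, and 15 genes with a ratio of 0, under 0.01 or without a finite value (1 of them a member) are not drawn.

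Just inside the threshold lay DDX50P2 with a ratio of 1.501, PDCD4-AS1 with 1.502, HRNR with 1.503 and N4BP3 with 1.505. Just outside lay SNAPC1 with 1.497, RP11-318C24.1 with 1.487, RP1-90J20.11 with 1.483 and RP11-299G20.2 with 1.483. SNAPC1, a subunit of the complex that activates small nuclear RNA genes, had 17.7 and 20.8 CPM in the control and 32.3 and 31.2 CPM in OE. The edge of the set therefore falls in a continuous range of ratios.

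Replicates of the members were close, which the rule favours. The higher OE library was a median of 1.08 times the lower, and the higher control library 1.11 times the lower. Only 4 members differed by more than 1.5 times between the OE libraries (RP11-269G24.4, RP11-311C24.1, HRNR and RP11-638I8.1). In the vector control, 10 members differed by more than 1.5 times or had a 0 in 1 or both libraries.

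The first members are the overexpressed lncRNA and its near-identical copy. RP5-998N21.4 had 1.35 and 1.37 CPM in the control and 97.8 and 99.2 CPM in OE. The copy RP11-439A17.9, an lncRNA on the other side of the chromosome 1 centromere, had 0 and 0.166 CPM in the control and 184 and 189.5 CPM in OE. Both were near 0 in the control and far higher in both OE libraries. From 9880 counts in OE and 4 in the control, the copy was 2235-fold higher, with an exact 95% interval of 873 to 8206 that covers counting error only. RP5-998N21.4 was 72.6-fold higher. For each count of RP5-998N21.4, RP11-439A17.9 had 1.88 counts in OE library 1 and 1.91 in OE library 2.

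The transcripts of these genes align over 3539 nt with 23 mismatches and 4 gap nt (99.4% identity), and the longest stretch without a difference is 484 nt. Of the gap-free stretches of 100 nt within 1 exon, the one with the most differences is shown, on GRCh37. The bases that differ are in capitals. It lies at chr1:149372825-149372924 (minus strand) in RP5-998N21.4 and at chr1:120932368-120932467 (plus strand) in RP11-439A17.9.
RP5-998N21.4: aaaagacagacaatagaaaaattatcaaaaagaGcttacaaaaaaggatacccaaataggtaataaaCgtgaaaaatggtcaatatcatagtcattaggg
RP11-439A17.9: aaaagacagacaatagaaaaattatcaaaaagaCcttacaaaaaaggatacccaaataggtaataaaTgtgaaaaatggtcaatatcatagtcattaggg
The 100 nt differ at 2 positions, so a read from this stretch carries few bases that tell the copies apart. The vector holds a single cDNA, and how many of the counts of each gene came from the other was not tested. Another similar lncRNA, RP11-196G18.3, which is no member, had 139 and 112 counts in the control and 92 and 141 in OE, so its groups overlapped.

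**Figure D2:**
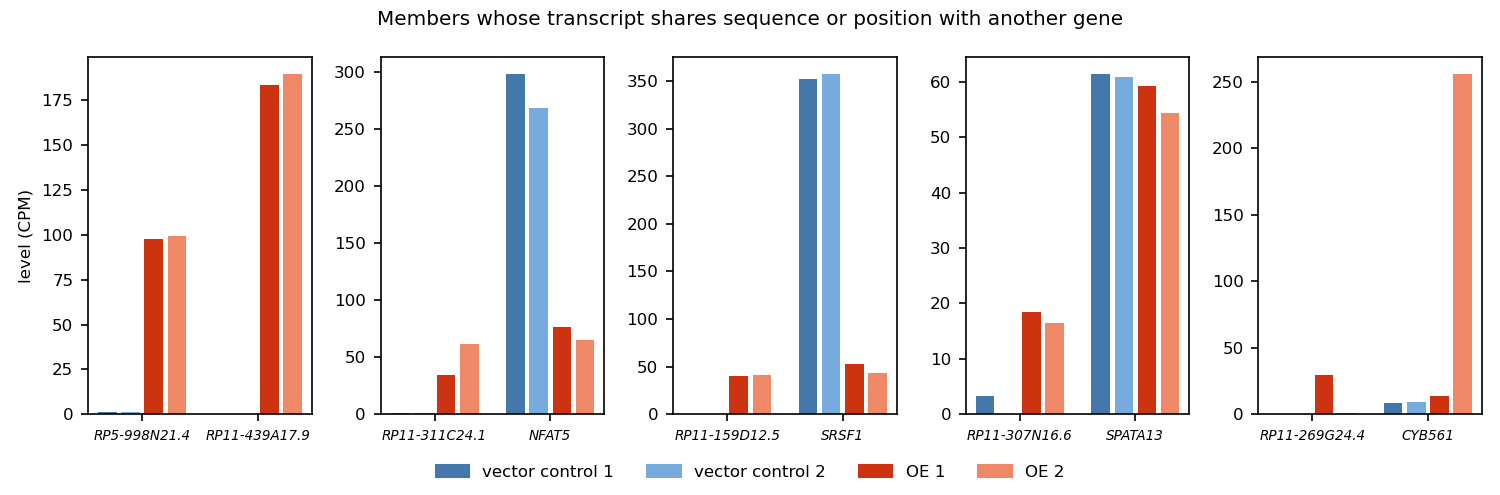
Levels (CPM, bars from 0) in vector control 1 and 2 (blue) and OE 1 and 2 (red) for 5 members, each beside a gene that shares its sequence or position. RP5-998N21.4 and RP11-439A17.9 were high in both OE libraries; NFAT5 and SRSF1 were lower in OE where the members RP11-311C24.1 and RP11-159D12.5 were higher; RP11-269G24.4 was high in OE 1 and its neighbour CYB561 in OE 2.

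Other members with large ratios share exons with another gene. RP11-159D12.5, a readthrough coding transcript of 6 exons on chromosome 17, had 0 counts in both control libraries and 39.9 and 41.5 CPM in OE. It was at least 325-fold higher in OE, taking 3 counts per library for 0. It shares 1890 nt of exon on the same strand with SRSF1, a splicing factor. SRSF1 had 352 and 357 CPM in the control and 52.5 and 42.8 CPM in OE, and was lower in both OE libraries (log2 fold change -2.96, SE 0.13). RP11-311C24.1, a single-exon lncRNA of 1588 nt, lies wholly within an exon of NFAT5, the osmotic stress factor, on the same strand. RP11-311C24.1 had 0.841 and 1.08 CPM in the control and 34.8 and 61.9 CPM in OE. NFAT5 had 298 and 269 CPM in the control and 76.6 and 65.3 CPM in OE (log2 fold change -2.06, SE 0.12). In both pairs the member was higher and its partner lower in both OE libraries than in both control libraries. Whether reads were assigned to the members in place of their partners was not tested.

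RP11-307N16.6, a readthrough coding transcript of 16 exons, had 3.36 and 0 CPM in the control and 18.5 and 16.4 CPM in OE. The control libraries differed, since 1 held 80 counts and the other 0. It shares 3765 nt on the same strand with SPATA13, a guanine nucleotide exchange factor, which had 61.4 and 60.8 CPM in the control and 59.3 and 54.3 CPM in OE. RP11-269G24.4, an lncRNA of 552 nt that lies 93 bp from CYB561, had 0.420 and 0.415 CPM in the control and 29.2 and 1.06 CPM in OE. The OE libraries of this gene differed 27.5-fold, and OE library 2 was 2.52 times the higher control library. The log2 fold change was 5.10 with all libraries and 1.27 without OE replicate 1. CYB561, which encodes a cytochrome of secretory vesicles, had 8.79 and 9.54 CPM in the control and 13.7 and 256 CPM in OE. Between the OE libraries, the one with less of the lncRNA held more CYB561, while both genes were low in the control.

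The transcription factors among the members belong to neural, neuroendocrine and zinc finger families. The 7 genes described had a median OE over control of 2.22-fold and a range of 1.98 to 5.10. INSM2, a zinc finger factor related to the neuroendocrine INSM1, had 8.58 and 7.30 CPM in the control and 41.3 and 39.7 CPM in OE, a 5.10-fold difference (log2 fold change 2.29, SE 0.13). Its OE libraries were close together and more than 4 times above either control library.

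HAND1, a basic helix-loop-helix relative of HAND2, had 16.2 and 10.4 CPM in the control and 29.3 and 29.8 CPM in OE, a 2.22-fold difference (log2 fold change 1.09, SE 0.25). Its control libraries differed by 1.56 times. SCRT1, a neuronal zinc finger repressor, had 6.47 and 7.14 CPM in the control and 17.3 and 19.7 CPM in OE, a 2.71-fold difference (log2 fold change 1.38, SE 0.15). TOX, an HMG-box factor, had 19.6 and 15.8 CPM in the control and 36.1 and 41.4 CPM in OE, a 2.19-fold difference (log2 fold change 1.07, SE 0.16). The opposite-strand lncRNA TOX-DT, which overlaps TOX exons by 108 nt, was also higher in OE, with 1.60 and 3.90 CPM in the control and 7.68 and 9.11 CPM in OE.

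ZNF853, ZNF22 and ZFP3 encode zinc finger proteins, a class that mostly binds DNA. ZNF853 had 82.0 and 99.7 CPM in the control and 197 and 192 CPM in OE. For ZNF22 the values were 25.2 and 21.8 CPM in the control and 44.3 and 48.9 CPM in OE, and for ZFP3 they were 4.96 and 5.02 CPM in the control and 13.4 and 13.8 CPM in OE. Each was near 2-fold or above, with folds of 2.14, 1.98 and 2.72.

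Among chromatin proteins, H1F0, the replacement linker histone that accumulates in cells that leave the cycle, was the second most abundant member. H1F0 had 687 and 686 CPM in the control and 1520 and 1425 CPM in OE, a 2.14-fold difference (log2 fold change 1.04, SE 0.05). Its replicates lay close together, and every OE library was more than 2 times every control library. TET1, a dioxygenase that oxidises 5-methylcytosine in DNA, had 12.2 and 8.05 CPM in the control and 21.0 and 20.7 CPM in OE, a 2.06-fold difference (log2 fold change 0.98, SE 0.24). H1F0 was placed on the histone list, although its expression does not depend on DNA replication.

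Neuronal cytoskeleton genes followed. NEFL, the light neurofilament subunit, had 44.7 and 46.4 CPM in the control and 76.9 and 76.4 CPM in OE. INA, which encodes the neuronal intermediate filament protein internexin, had 35.5 and 29.3 CPM in the control and 64.3 and 64.3 CPM in OE. CDK5R2, the p39 activator of the neuronal kinase CDK5, had 9.54 and 7.59 CPM in the control and 20.2 and 25.3 CPM in OE. The folds of these 3 genes were 1.68, 1.99 and 2.65.

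The receptors among the members were CHRNB2, INSRR and HTR2B. CHRNB2, the beta2 subunit of neuronal nicotinic acetylcholine receptors, had 33.0 and 28.7 CPM in the control and 57.8 and 55.9 CPM in OE, a 1.84-fold difference (log2 fold change 0.82, SE 0.11). INSRR, a receptor tyrosine kinase of the insulin receptor family, had 3.41 and 3.82 CPM in the control and 16.8 and 15.3 CPM in OE, a 4.45-fold difference (log2 fold change 2.09, SE 0.15). HTR2B, a serotonin receptor, had 3.03 and 3.32 CPM in the control and 5.28 and 6.15 CPM in OE, a 1.80-fold difference (log2 fold change 0.78, SE 0.18). HTR2B overlaps 559 nt of the proteasome gene PSMD1 on the opposite strand, which was lower in OE (37.2 and 36.2 CPM in the control, 22.5 and 24.9 CPM in OE). The counting is not stated to use strand, so whether reads of the overlapping stretch were told apart is not known.

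Secreted and surface ligands held the most abundant member. PTX3, the long pentraxin that binds microbes and complement, had 1262 and 1231 CPM in the control and 2157 and 2068 CPM in OE, a 1.69-fold difference (log2 fold change 0.70, SE 0.04). Per kilobase of transcript, PTX3 averaged 662 CPM per kb in the control and 1121 CPM per kb in OE, and H1F0 averaged 312 and 668 CPM per kb. These were the highest length-scaled levels among the members with an annotated length. ULBP1, a surface ligand of the natural killer receptor NKG2D, had 1.72 and 2.82 CPM in the control and 12.6 and 13.6 CPM in OE, a 5.77-fold difference (log2 fold change 2.46, SE 0.30).

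FGFBP3, a carrier of fibroblast growth factors, had 10.7 and 10.9 CPM in the control and 21.9 and 20.8 CPM in OE. UCN, the stress peptide urocortin, had 4.96 and 5.19 CPM in the control and 11.6 and 10.7 CPM in OE. ENHO, which encodes the peptide adropin, had 3.24 and 3.61 CPM in the control and 6.42 and 6.99 CPM in OE, and EFNA2, an ephrin ligand of axon guidance, had 2.35 and 3.11 CPM in the control and 5.49 and 5.26 CPM in OE. These 4 ligands had folds of 1.98, 2.20, 1.96 and 1.97.

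The enzymes FBLL1, PPM1E and UBE2QL1 differed in size of change. FBLL1, a fibrillarin-like RNA methyltransferase of neurons, had 6.73 and 7.34 CPM in the control and 30.2 and 28.1 CPM in OE, a 4.15-fold difference (log2 fold change 1.99, SE 0.13). PPM1E, a protein phosphatase, had 5.55 and 5.10 CPM in the control and 14.8 and 15.1 CPM in OE, a 2.81-fold difference (log2 fold change 1.43, SE 0.13). UBE2QL1, of the ubiquitin-conjugating family, had 18.9 and 13.1 CPM in the control and 31.5 and 35.4 CPM in OE. The small GTPase RHOB, whose mRNA is short-lived, had 196 and 196 CPM in the control and 302 and 305 CPM in OE and the smallest fold of all members, 1.55. RAB33A, a GTPase of vesicle transport, had 2.69 and 3.61 CPM in the control and 6.42 and 5.44 CPM in OE. DCHS1, a giant protocadherin, had 44.4 and 40.7 CPM in the control and 74.9 and 79.3 CPM in OE.

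**Figure D3:**
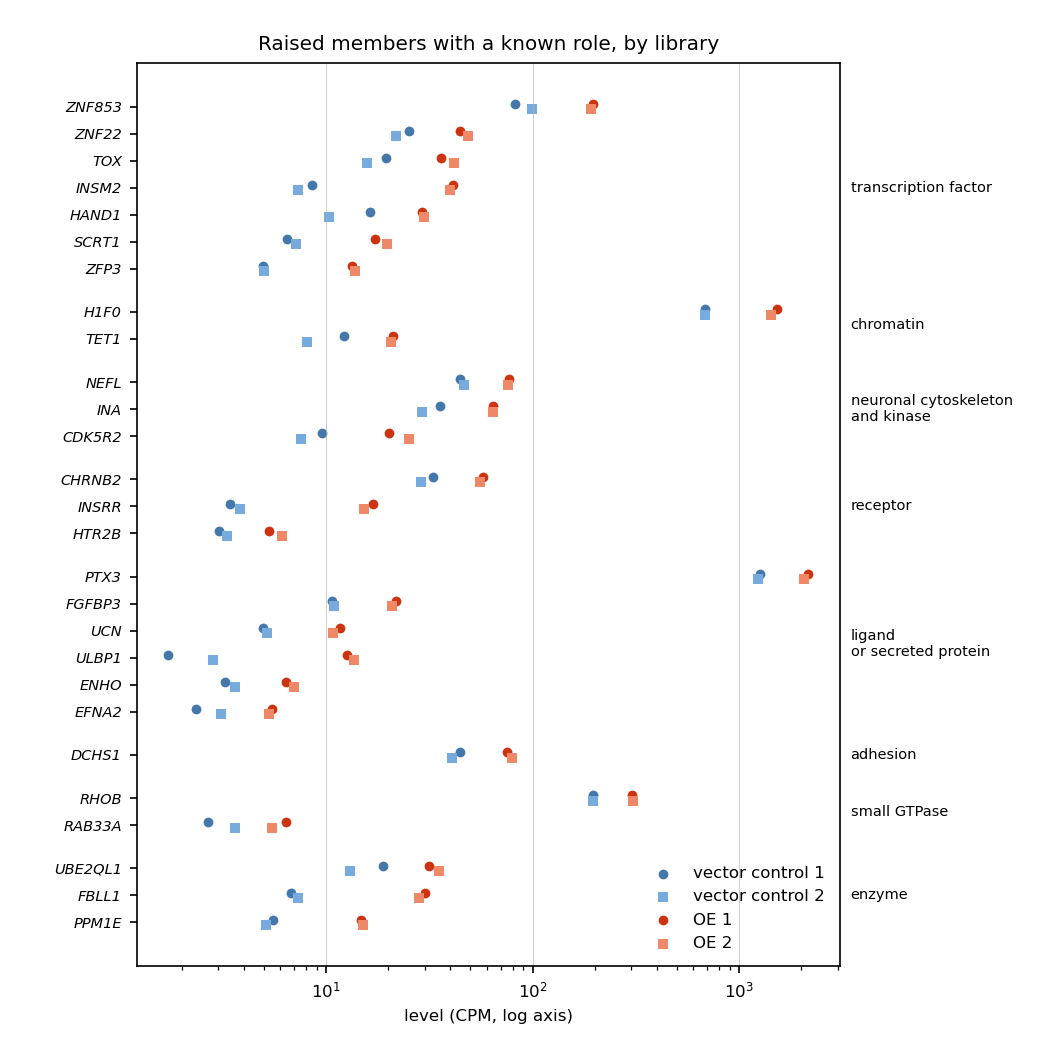
Level in each library (CPM, log axis) of 27 members with a known role, grouped by role and sorted by mean level. Blue marks are the vector control and red marks the OE libraries, with circles for replicate 1 and squares for replicate 2. In every gene both red marks lie to the right of both blue marks, as the rule required, with the widest gaps in INSM2, INSRR, ULBP1 and FBLL1.

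The other coding members include the 2 readthrough transcripts above. KLHDC7B, a kelch-repeat protein, had 1.89 and 1.04 CPM in the control and 8.37 and 11.5 CPM in OE, a 6.78-fold difference (log2 fold change 2.70, SE 0.39). TMEM215, a membrane protein, had 1.30 and 1.70 CPM in the control and 7.24 and 6.96 CPM in OE, a 4.72-fold difference (log2 fold change 2.17, SE 0.22). The remaining 9 (XKR7, FAM163A, C4orf32, C2CD4C, KBTBD11, TTC9, TCEAL5, N4BP3 and HRNR) had folds from 1.68 for N4BP3 to 2.67 for TCEAL5. FAM163A, known as a neuroblastoma-derived secretory protein, had 14.8 and 14.5 CPM in the control and 26.4 and 25.0 CPM in OE. HRNR, an epidermal protein, had 4.37 and 3.98 CPM in the control and 10.3 and 6.57 CPM in OE, with OE libraries 1.57-fold apart. Of the 5 members not found in the annotation, AL590369.1 had 10.6 and 7.97 CPM in the control and 17.1 and 17.8 CPM in OE, AC015849.14 had 6.05 and 6.47 CPM in the control and 11.3 and 10.5 CPM in OE, and RP1-90J20.12 had 4.04 and 1.87 CPM in the control and 7.64 and 7.56 CPM in OE. The control libraries of RP1-90J20.12 differed more than 2-fold, and its log2 fold change was 1.30 with all libraries, 1.95 when control replicate 1 was left out and 0.85 when control replicate 2 was. TCEAL5 is 92.2% identical to TCEAL3, which changed little (log2 fold change -0.02, SE 0.09).

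Most of the 25 pseudogenes resemble a coding gene that can be compared with them. A transcript of a coding gene aligned over at least 50% of the length at 90% identity or more for 23 of the 25, and for 22 of these the coding gene is in the table (21 distinct genes). Identity ran from 90.6% to 99.7% with a median of 95.5%. Of the 21 coding genes, 16 had both OE libraries above both control libraries and 0 had both below. Over all genes with several transcripts and a mean of 4 CPM or more, 34.3% had both OE libraries above and 25.6% both below. Since a pseudogene and its parent share sequence, their values are not independent.

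PSAT1P3 and MTHFD2P7 were the pseudogenes with the largest folds, and their parents PSAT1 and MTHFD2 encode enzymes of serine synthesis and mitochondrial one-carbon metabolism. PSAT1P3 had 17.5 and 18.1 CPM in the control and 70.3 and 58.9 CPM in OE, a 3.62-fold difference (log2 fold change 1.79, SE 0.13). PSAT1 had 83.3 and 89.9 CPM in the control and 277 and 280.3 CPM in OE. MTHFD2P7 had 40.8 and 42.5 CPM in the control and 97.6 and 94.1 CPM in OE, and MTHFD2 had 165 and 172 CPM in the control and 342 and 361 CPM in OE. In both pairs pseudogene and parent were higher in both OE libraries.

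Aligned stretches of 100 nt are shown on GRCh37, with the differing bases in capitals. For each pair these are the gap-free stretches that differ most within 1 exon of the parent's coding sequence, not typical ones. They lie at chr1:79521425-79521524 (minus strand) in PSAT1P3 and chr9:80919676-80919775 (plus strand) in PSAT1. For the other pairs they lie at chr3:179182135-179182234 (plus strand) in MTHFD2P7 and chr2:74425770-74425869 (plus strand) in MTHFD2, and at chrX:79827770-79827869 (minus strand) in HK2P1 and chr2:75115047-75115146 (plus strand) in HK2.
PSAT1P3: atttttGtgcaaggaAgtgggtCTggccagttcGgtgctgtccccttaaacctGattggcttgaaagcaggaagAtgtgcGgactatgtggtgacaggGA
PSAT1: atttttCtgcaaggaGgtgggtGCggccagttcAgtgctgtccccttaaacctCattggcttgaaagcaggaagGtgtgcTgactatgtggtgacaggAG
MTHFD2P7: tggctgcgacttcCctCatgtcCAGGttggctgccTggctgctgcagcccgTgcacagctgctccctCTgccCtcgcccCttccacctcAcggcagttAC
MTHFD2: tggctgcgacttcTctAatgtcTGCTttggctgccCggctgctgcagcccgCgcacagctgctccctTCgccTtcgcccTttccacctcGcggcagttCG
HK2P1: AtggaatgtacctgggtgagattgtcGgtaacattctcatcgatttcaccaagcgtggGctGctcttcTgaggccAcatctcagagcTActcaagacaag
HK2: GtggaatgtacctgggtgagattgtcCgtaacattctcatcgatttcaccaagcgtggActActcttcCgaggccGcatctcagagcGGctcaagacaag
The stretches differ at 10, 15 and 8 of 100 positions. Over the whole alignment PSAT1P3 and PSAT1 were 95.4% identical, with a longest shared run of 67 nt, MTHFD2P7 and MTHFD2 94.4% with 96 nt, and HK2P1 and HK2 96.7% with 183 nt. HK2P1, the copy of the glycolytic enzyme hexokinase 2, had 73.9 and 66.1 CPM in the control and 117 and 121 CPM in OE, and HK2 had 84.0 and 83.0 CPM in the control and 149 and 155 CPM in OE.

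XPOTP1, a copy of the tRNA export factor XPOT, had 143 and 143 CPM in the control and 222 and 224 CPM in OE. XPOT had 122 and 121 CPM in the control and 167 and 181 CPM in OE. RP11-123M21.2, which resembles the small GTPase gene RALA, had 39.1 and 38.4 CPM in the control and 63.3 and 59.3 CPM in OE, and RALA had 192 and 155 CPM in the control and 284 and 306 CPM in OE. Both parents were higher in both OE libraries.

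In 5 of the 21 coding genes the 2 libraries of a group differed by more than 4-fold. The rule keeps out a pseudogene with such a drop in an OE library, so the steadier pseudogene values are not set against these. TCEA1P2, a copy of the elongation factor gene TCEA1, had 90.6 and 86.9 CPM in the control and 176 and 165 CPM in OE, while TCEA1 had 92.7 and 7.51 CPM in the control and 186 and 197 CPM in OE. FAM60CP and FAM60BP resemble SINHCAF, a subunit of the SIN3 corepressor complex, which had 111 and 106 CPM in the control and 4.39 and 196 CPM in OE. FAM60CP itself had 33.6 and 34.8 CPM in the control and 61.1 and 58.0 CPM in OE, and FAM60BP had 3.57 and 4.86 CPM in the control and 10.3 and 7.42 CPM in OE.

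RP11-153M7.1, a copy of the autophagy gene WDR45, had 73.1 and 74.3 CPM in the control and 127 and 129.8 CPM in OE, and WDR45 had 8.45 and 10.5 CPM in the control and 1.91 and 16.8 CPM in OE. SDCBPP2, a copy of the syntenin gene SDCBP, had 5.76 and 6.10 CPM in the control and 14.4 and 10.6 CPM in OE, and SDCBP had 192 and 205 CPM in the control and 7.52 and 286 CPM in OE. RP11-15B17.2, a copy of the ribosomal protein-like gene RPL7L1, had 5.09 and 3.98 CPM in the control and 10.6 and 8.58 CPM in OE, and RPL7L1 had 219.5 and 234 CPM in the control and 37.2 and 260.1 CPM in OE. In each of these 5 coding genes a single library lay far below the other library of its group.

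**Figure D4:**
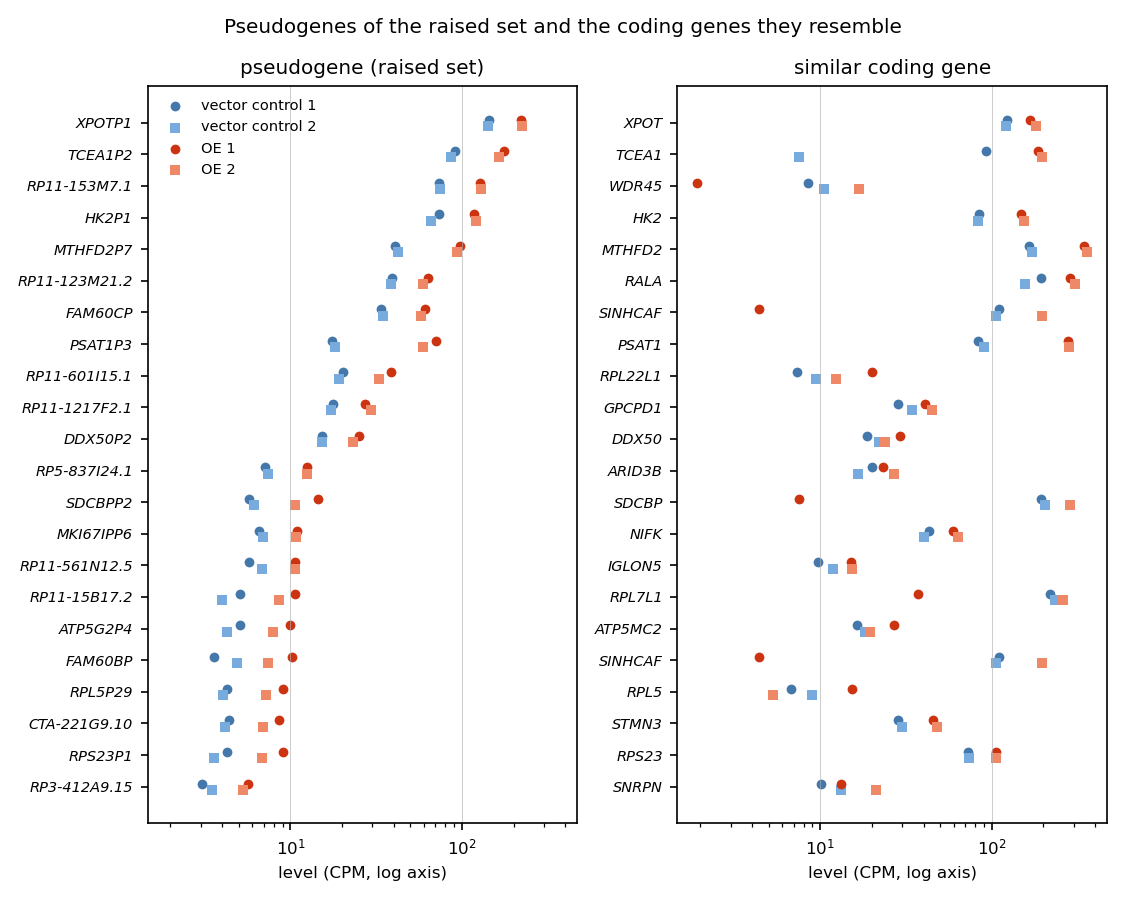
Levels (CPM, log axis) of 22 pseudogenes of the set (left) and of the coding genes they resemble (right, same order; SINHCAF is listed for both FAM60CP and FAM60BP), with blue marks for vector control and red marks for OE. Both red marks lie to the right of both blue marks for every pseudogene, as the rule required, and TCEA1, WDR45, SINHCAF, SDCBP and RPL7L1 each have 1 library far to the left.

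The other pairs with both OE libraries higher in the parent were those of RPL22L1, GPCPD1, DDX50, ARID3B, NIFK, IGLON5, ATP5MC2, STMN3, RPS23 and SNRPN. Their pseudogenes (RP11-601I15.1, RP11-1217F2.1, DDX50P2, RP5-837I24.1, MKI67IPP6, RP11-561N12.5, ATP5G2P4, CTA-221G9.10, RPS23P1 and RP3-412A9.15) had folds from 1.58 to 2.03. RPL5P29 had 4.25 and 4.03 CPM in the control and 9.02 and 7.17 CPM in OE, while the control and OE values of RPL5 overlapped (6.77 and 8.92 CPM in the control and 15.3 and 5.30 CPM in OE). OR7E38P, of a large family of olfactory receptor pseudogenes, had 11.4 and 10.5 CPM in the control and 22.2 and 21.2 CPM in OE. The last 2 pseudogenes, RP11-10L12.2 and RP11-500G22.2, had folds of 1.81 and 2.13, and no similar coding transcript was found for either.

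The 20 lncRNAs made up 22.5% of the members, against 14.9% of all 2414 eligible genes and 5.48% of the 73 lowered genes. Coding genes made up 43.8% of members, 28.5% of eligible genes and 53.4% of lowered genes, and pseudogenes 28.1%, 50.9% and 31.5%. Among eligible genes of like level (mean CPM between the 10th and 90th percentiles of the members), the shares were 27.4% coding, 51.4% pseudogenes and 15.1% lncRNAs. These shares are descriptions with no test.

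The lncRNA members were set beside their nearest coding gene. Of the 20, 13 lay within 1000 bp of the span of that gene or overlapped it. The same share was not taken over all eligible lncRNAs, so it is not read as a trait of the members. Of the 19 nearest coding genes in the table, at any distance, 10 had both OE libraries above both control libraries and 2 both below, where 33.3% and 22.8% of all genes tested did. RP11-284F21.9 lies 386 bp from BCAN, a proteoglycan of the neural matrix. It had 10.8 and 10.5 CPM in the control and 21.0 and 21.44 CPM in OE, and BCAN had 4.41 and 4.27 CPM in the control and 6.95 and 7.42 CPM in OE.

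JHDM1D-AS1 lies 201 bp from KDM7A, a histone demethylase gene on the opposite strand. It had 4.54 and 4.36 CPM in the control and 8.01 and 7.07 CPM in OE, and KDM7A had 34.3 and 33.5 CPM in the control and 53.8 and 58.2 CPM in OE. RP11-254F7.2, 2186 bp from the zinc finger gene KLF11, had 7.53 and 8.63 CPM in the control and 14.3 and 15.9 CPM in OE, and KLF11 had 56.2 and 57.8 CPM in the control and 88.7 and 89.5 CPM in OE. In these 3 pairs lncRNA and neighbour were both higher in OE.

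Other lncRNAs had neighbours whose libraries overlapped. RP11-379H18.1 overlaps HERPUD2, a ubiquitin-like domain gene, by 487 nt on the opposite strand. RP11-379H18.1 had 80.8 and 73.2 CPM in the control and 127 and 133 CPM in OE, and HERPUD2 had 61.3 and 60.4 CPM in the control and 74.1 and 41.4 CPM in OE. RP11-61J19.4 lies 5603 bp from the stress factor gene ATF3. It had 2.77 and 4.44 CPM in the control and 7.89 and 7.52 CPM in OE, and ATF3 had 8.997 and 21.7 CPM in the control and 18.1 and 52.8 CPM in OE, where the groups overlapped because the replicates of each differed more than 2-fold. RP11-1114A5.4, 207 bp from the splicing regulator gene RBMX, had 1.68 and 2.16 CPM in the control and 6.58 and 5.58 CPM in OE, and RBMX had 95.2 and 14.4 CPM in the control and 75.0 and 87.8 CPM in OE.

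CTD-3110H11.1 overlaps 612 nt of the lncRNA GABPB1-AS1 on the opposite strand. CTD-3110H11.1 had 5.38 and 4.86 CPM in the control and 10.6 and 9.26 CPM in OE, and GABPB1-AS1 had 6.56 and 5.44 CPM in the control and 10.0 and 9.54 CPM in OE. LINC00565 overlaps LINC00452 by 461 nt on the opposite strand and had 5.84 and 7.10 CPM in the control and 11.7 and 12.8 CPM in OE, with 1.05 and 0.954 CPM in the control and 2.24 and 2.37 CPM in OE for LINC00452. Both overlapping partners were also higher in OE. The other 8 lncRNAs (C7orf13, RP1-239B22.5, SH3RF3-AS1, RP11-638I8.1, PDCD4-AS1, AC105020.1, CTC-203F4.2 and RP11-103J17.2) had folds from 1.69 to 2.23.

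Coding members were richer in G and C than the eligible coding genes. Their transcripts had a median of 54.6% G+C, against 49.2% in 673 eligible coding genes and 50.8% in the lowered ones. Over eligible coding genes under 45%, from 45%, from 50%, from 55% and from 60% G+C, the raised share was 3.95%, 4.0%, 6.19%, 7.84% and 9.09%. The lowered share in the same classes was 4.39%, 5.60%, 5.15%, 8.82% and 5.79%. The median log2 fold change of the lowest and highest class was -0.04 and -0.08, so the typical gene of either class did not move upward. Median transcript length was 3099 nt in both coding members and eligible coding genes. A single exon was found in 6 of 39 coding members (15.4%: H1F0, RHOB, INSM2, FBLL1, CDK5R2 and KLHDC7B) and in 26.7% of eligible ones.

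Promoters were compared for letters of known binding sites. RefSeq promoters (GRCh38.p14, 250 bases before to 50 after the start) were matched for 34 members, and both strands were searched. The letters TGATGNAA, which resemble the core of the element bound by ATF4 with C/EBP factors, were in 4 of 34 member promoters (11.8%), 0 of 33 lowered, 2.54% of 630 eligible and 3.67% of all 27305. The contexts are shown for the 4 members, with the match in capitals in either orientation, at chr5:168529254-168529333 (plus strand), chr10:91909582-91909661 (minus strand), chr22:50545712-50545791 (plus strand) and chr9:32783462-32783541 (plus strand).
FBLL1: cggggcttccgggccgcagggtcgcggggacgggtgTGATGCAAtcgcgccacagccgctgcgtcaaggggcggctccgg
FGFBP3: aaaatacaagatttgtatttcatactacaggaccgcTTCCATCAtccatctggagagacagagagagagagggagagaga
KLHDC7B: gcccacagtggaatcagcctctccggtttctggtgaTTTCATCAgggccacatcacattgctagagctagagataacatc
TMEM215: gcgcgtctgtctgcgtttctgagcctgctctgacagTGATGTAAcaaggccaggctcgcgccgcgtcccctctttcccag
The folds of these 4 genes are given above. The rule used those same values, so they are not set against the match. A match in letters is no evidence of binding, and 4 promoters are few. The core of the interferon-stimulated response element (GAAA, then 2 free bases, then GAAA) was in 0 of the 34, against 3.65% of all promoters.

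The other letters searched were about as frequent in member promoters as in eligible ones, or less so, and no searched string contains another. The cyclic AMP element TGACGTCA and the NF-kappaB site (GGGA, then 1 free base, then TTTCC) were in 0 of 34. The AP-1 site TGANTCA was in 1 (N4BP3). The E-box CAGCTG, a site of basic helix-loop-helix factors, was in 5 (14.7%, against 14.6% of eligible promoters), namely CDK5R2, FAM163A, INA, LINC00565 and ZFP3. The GC box GGGCGG was in 21 (61.8%, against 68.6%) and the TATA box TATAAA in 3 (HRNR, INSM2 and ULBP1). The median G+C of the windows was 66.8% for members and 65.7% for eligible genes.

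To place the members in their pathways, 8 gene lists were compared outside the set, with edgeR's quasi-likelihood test over all 20528 genes tested. Genes were called where the Benjamini-Hochberg adjusted p was under 0.05 and the log2 fold change was beyond 0.5 in either direction. Of all genes tested, 0.283% were called higher and 0.312% lower, and the median log2 fold change was 0.01. By this call 10 members were higher, a count that is read no further since the same contrast chose them. DESeq2 called 5.87% of all genes higher and 5.65% lower. It called 88 of the 89 members higher, a count that is read no further for the same reason. With 1 library left out, 0 genes were called without vector control replicate 1 or 2, 75 without OE replicate 1 and 120 without OE replicate 2, against 122 with all 4. Each of these fits sets a lone library against 2, takes the spread from the other group alone and assumes that the lone library varies like it, so the counts say nothing about stability. With all 4 libraries, 0 genes were called at an adjusted p under 0.01 (4269 at an unadjusted p under 0.05). In bulk RNA, a change in the share of cells of a type and a change in RNA per cell cannot be told apart.

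Adrenergic and catecholamine genes, which hold the member HAND1, were mostly higher. Of 28 tested non-members 2 were called higher and 0 lower, 24 had both OE libraries above both control libraries (33.3% of all genes tested did) and 1 both below (22.8% did), and the median log2 fold change was 0.82. CHGA, which encodes the granule protein chromogranin A, had 48.6 and 47.4 CPM in the control and 139 and 124 CPM in OE (log2 fold change 1.39, SE 0.10, edgeR adjusted p = 0.0449). The summed adrenergic markers were higher in both OE libraries, as given above, and their part in the members' values was not tested.

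Neuronal membrane, synapse and axon genes hold the members CHRNB2, ENHO, FAM163A, INA and NEFL. Of 35 tested non-members, edgeR called 0 (27 at an unadjusted p under 0.05), and DESeq2 called 27 higher and 0 lower. Both OE libraries were above both control libraries in 30 of 35, and the median log2 fold change was 0.87. The nicotinic receptor genes CHRNA3 and CHRNB4, which encode an alpha and a beta subunit, had log2 fold changes of 1.16 (SE 0.28) and 1.31 (SE 0.17). GAP43, a growth cone protein, was at -0.06 (SE 0.10).

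Amino acid and ATF4 response genes hold no member, but the parents of 2 member pseudogenes are on the list. These parents, PSAT1 and MTHFD2, share sequence with members and are not independent of the set. Of 26 tested genes 4 were called higher and 0 lower, and the median log2 fold change was 0.85. The change was above 0 in 25 and below 0 in 1, ATF5 (-0.15, SE 0.17). It was small in CHAC1 (0.05, SE 0.10) and DDIT3 (0.20, SE 0.12). ATF4 itself was at 0.19 (SE 1.73), with replicates far apart. PSAT1 had a log2 fold change of 1.62 (SE 0.08, edgeR adjusted p = 0.0298) and MTHFD2 one of 1.00 (SE 0.07, edgeR adjusted p = 0.0415). ASNS, asparagine synthetase, had 39.4 and 37.9 CPM in the control and 118 and 109.6 CPM in OE (log2 fold change 1.497, SE 0.09, edgeR adjusted p = 0.0382). STC2, a secreted stress-induced glycoprotein, had 19.0 and 17.8 CPM in the control and 78.8 and 88.9 CPM in OE (log2 fold change 2.12, SE 0.11, edgeR adjusted p = 0.0321).

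Interferon-stimulated genes also hold no member, and 5 of the 58 have 1 listed transcript. Of 55 tested 2 were called higher (IFI6 and XAF1) and 0 lower, 49 had both OE libraries above both control libraries and 2 both below, and the median log2 fold change was 0.52. DESeq2 called 22 higher and 2 lower. IRF9, a subunit of the interferon-activated factor ISGF3, had the lowest log2 fold change of the list, -1.99 (SE 0.42). IFI6, an interferon-induced membrane protein, had 12.4 and 14.8 CPM in the control and 68.2 and 65.5 CPM in OE (log2 fold change 2.24, SE 0.14, edgeR adjusted p = 0.0376). XAF1, an apoptosis factor, had 2.65 and 2.66 CPM in the control and 15.5 and 17.5 CPM in OE (log2 fold change 2.57, SE 0.15, edgeR adjusted p = 0.0376).

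The list of chemokines, cytokines and NF-kappaB response genes holds PTX3. Of 25 tested non-members 1 was called higher and 2 lower, and the median log2 fold change was 0.09. CCL5, a T cell chemokine, had 12.1 and 13.03 CPM in the control and 53.1 and 55.6 CPM in OE (log2 fold change 2.05, SE 0.10, edgeR adjusted p = 0.031). The monocyte chemokine CCL2 had 538 and 544 CPM in the control and 352 and 354 CPM in OE (log2 fold change -0.68, SE 0.05, edgeR adjusted p = 0.044), and the neutrophil chemokine CXCL1 had 309 and 322 CPM in the control and 187 and 189 CPM in OE (log2 fold change -0.81, SE 0.06, edgeR adjusted p = 0.0481).

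The list of replication-dependent histone genes, on which H1F0 was placed, had mostly lower values in OE. Of 23 tested non-members 0 were called higher and 1 lower, 13 had both OE libraries below both control libraries against 22.8% of all genes tested, and the median log2 fold change was -0.50. H2AFX, the variant histone phosphorylated at DNA breaks, had 309.6 and 321 CPM in the control and 170.1 and 175 CPM in OE (log2 fold change -0.93, SE 0.06, edgeR adjusted p = 0.0415). Mesenchymal-state genes had a median of -0.24 on the log2 scale, and edgeR called 0 of 30 (15 at an unadjusted p under 0.05), where DESeq2 called 1 higher and 4 lower. Immediate early and growth factor response genes had a median of 0.07, and edgeR called 0 of 32 (15 at an unadjusted p under 0.05), where DESeq2 called 7 higher and 2 lower.

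**Figure D5:**
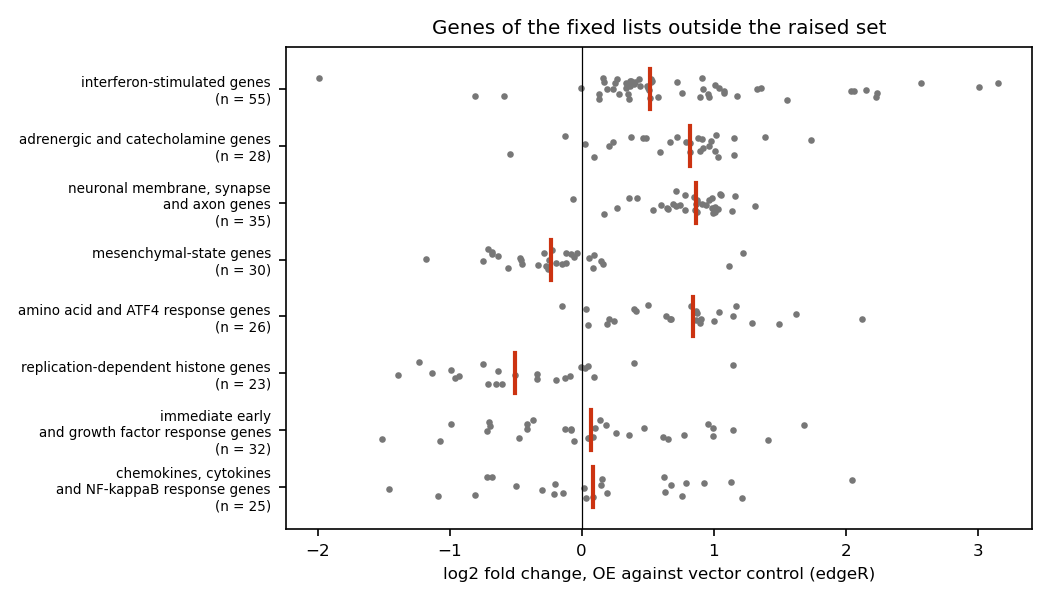
Log2 fold change, OE against vector control (edgeR), of each tested gene of the 8 lists that is not a member, 1 point per gene with vertical jitter and a red bar at the median. Medians lie at 0.52, 0.82, 0.87 and 0.85 for interferon, adrenergic, neuronal and ATF4 lists, at -0.24 and -0.50 for mesenchymal and histone lists, and at 0.07 and 0.09 for the last 2.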

How the data were processed

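Whole-number counts per transcript were deposited by the authors without normalization for 4 libraries (2 vector control, 2 OE). Per the paper's methods and the submitters' processing notes, reads were checked with FastQC, trimmed with Trimmomatic and mapped to hg19 with Bowtie2 (2.0.4). The notes also name Picard 2.21.6, StringTie 2.1.6 and DESeq2. The counting step, the annotation release and the use of strand are not given in the sources used here, and reads carry no molecular identifiers, so limits cover counting error only.

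CPM were taken over column totals of 196520 transcripts, and counts were summed per gene. All genes kept by filterByExpr (20528) were fitted with edgeR 4.0.16 (TMM, quasi-likelihood test, Benjamini-Hochberg, R 4.3.3), with DESeq2 1.42.0 as an alternative. The study names DESeq2 for this comparison. No covariates were used here. SE are from the edgeR fit. p-values measure only the spread between these libraries, which may be technical. Replicates differed far beyond sampling noise (chi-square per gene 68.1 in the control and 77.9 in OE). Fits were tested on simulated data.

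Gene type, exons, G+C and overlaps came from GENCODE release 44 lifted to GRCh37, where 84 of 89 members were found, 3 of them under a newer gene ID. Similar transcripts were found with BLAST 2.17.0. Named genes were the transgene and its copies, the 20 members with the highest mean CPM, the 15 with the largest ratio, members on a list, the 4 on either side of the threshold, pseudogenes and overlapping members with their partners, and members by role (up to 8 per role). The members, lists and rules were chosen with earlier results of these data known. Some genes that these rules name are not reported here. Alternatives were other scalings, thresholds, filters, tools and libraries left out.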

Additional observations from a re-analysis of the deposited data

How the results depend on the processing

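The number of raised genes depended on the thresholds, from 222 at a mean of 1 CPM to 43 at 10 CPM, and from 252 at a looser fold to 25 at a fold of 2. It was 596 when genes with any number of transcripts were summed and 213 for genes with exactly 1 transcript that has counts. Leaving out 1 library, which removes 1 condition of the rule, gave 120 to 165 genes (151 without vector control replicate 1, 165 without vector control replicate 2, 155 without OE replicate 2). With TMM or DESeq2 size factors 68 genes were raised and 90 lowered, against 89 and 73 on column totals, so the balance of the 2 directions turned with the scaling. The 68 were all among the 89.

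Over all genes, edgeR called 122 (58 higher, 64 lower), DESeq2 2364, and edgeR on counts per transcript 1. At an adjusted p under 0.01 edgeR called 0 (4269 at an unadjusted p under 0.05). Leaving out 1 library gave 0 to 120 calls: 0 without either vector control library (3452 and 3362 at an unadjusted p under 0.05), and 75 without OE replicate 1. In these fits the lone library of a group is assumed to vary like the other group. Replicate numbers are shared by the groups, but deviations of same-numbered libraries did not go together (r = -0.02 across 20528 genes), so the numbers do not pair the libraries. With the replicate block edgeR called 0 genes overall (3060 at an unadjusted p under 0.05) and 0 in each of the 8 lists. DESeq2 called 24 interferon (22 higher), 16 adrenergic (15 higher), 27 neuronal (27 higher), 5 mesenchymal (1 higher), 15 ATF4 (15 higher), 7 histone (1 higher), 9 immediate early (7 higher) and 14 chemokine (9 higher) list genes.

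Of 623 recomputed log2 fold changes of members, 587 moved by less than their SE, 36 by more, and 0 changed sign. When 1 library was left out, 4 members moved by over 1.5 times. RP11-307N16.6 went from 3.31 to 11.79 without vector control replicate 1 and to 2.31 without vector control replicate 2. RP11-439A17.9 went from 10.98 to 15.20 without vector control replicate 2 and to 10.02 without vector control replicate 1. RP11-269G24.4 went from 5.10 to 1.27 without OE replicate 1 and to 6.05 without OE replicate 2. RP1-90J20.12 went from 1.30 to 1.95 without vector control replicate 1. The causes were not tested.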
